A study of Mus musculus with 6 samples.

Results

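The mouse genes for long-chain acyl-CoA synthetases (*Acsl1*, *Acsl3*, *Acsl4*, *Acsl5* and *Acsl6*) and for short-chain acyl-CoA synthetases (*Acss1*, *Acss2* and *Acss3*) were examined in bulk poly-A RNA-seq of whole inguinal white adipose tissue. They were chosen by symbol as the *Acsl* and *Acss* families, 8 of 35999 gene symbols, and all 8 were among the 16069 genes that passed the filter on low counts and were tested. The comparison asks how the RNA of these genes differs in this depot when adipocytes lack C/EBPα. Mice of both genotypes were females of the C57BL6/J strain, 10 weeks old, fed ad libitum and homozygous for a floxed *Cebpa* allele. The Cebpa_ASKO mice (3 libraries) also carried AdipoQ-Cre, and the Cebpa_fl/fl mice (3 libraries) were littermates without Cre. The Cre acts in cells that express adiponectin, so other cells of the depot keep *Cebpa*. Each library came from 1 mouse, with both depots together and the lymph nodes removed, and all 6 libraries are labelled batch 1. Total estimated counts were 46237121, 46601320 and 49477671 in Cebpa_fl/fl 1, 2 and 3, and 33141769, 37957065 and 42243013 in Cebpa_ASKO 1, 2 and 3.

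Acyl-CoA synthetases join a free fatty acid to coenzyme A, the step a fatty acid passes before it is built into triglyceride or phospholipid, lengthened or oxidized. The ACSL enzymes act on long chains and differ in the membranes they occupy and the fatty acids they prefer, and ACSL1 is known as the main form of adipocytes. The ACSS enzymes act on acetate and other short chains, ACSS2 in the cytosol and nucleus and ACSS1 and ACSS3 in mitochondria.

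*Cebpa*, the deleted gene, was measured first as a check on the labels. It stood at 448, 465 and 498 CPM (counts scaled to library size with edgeR's TMM factors) in Cebpa_fl/fl 1, 2 and 3, against 37.7, 45.8 and 37.2 CPM in Cebpa_ASKO 1, 2 and 3. Every Cebpa_ASKO library was far below every control. The log2 fold change, Cebpa_ASKO over Cebpa_fl/fl, was -3.55 (SE 0.131, adjusted p = 0.000163; edgeR, quasi-likelihood F test, Benjamini-Hochberg over all genes tested). *Cebpa* (ENSMUSG00000034957.10) lies on chromosome 7, from 35119293 to 35121928 on the plus strand of GRCm38.

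Adipocyte genes were present in every library. The 7 adipocyte markers summed to 16092, 18859 and 15862 CPM in the controls, against 9210, 7321 and 6870 CPM with *Cebpa* deleted, and *Fabp4* was the most abundant. All 7 had negative log2 fold changes, and 3 were called lower. Where an adipocyte gene is lower in bulk tissue, fewer adipocytes and less RNA per adipocyte cannot be told apart by its level alone. Some libraries also stood apart in other cells or genes. The 8 skeletal muscle markers, with *Myh4* the most abundant, summed to 534, 701 and 534 CPM in the controls, against 2803, 5102 and 1803 CPM in Cebpa_ASKO, and all 8 were called higher. Lymphocyte markers, with *Cd79a* the most abundant, summed to 194, 4.43 and 3.50 CPM in the controls, against 1.62, 1.84 and 4.33 CPM in Cebpa_ASKO, so that Cebpa_fl/fl 1 stood alone. In Cebpa_fl/fl 2 many genes of fatty acid synthesis and mitochondrial oxidation were low and macrophage and fibroblast markers were high, as described with *Acss2*.

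Of the 8 synthetase genes 3 were called, that is, had an adjusted p below 0.05 by edgeR. Over all genes tested 840 were called, or 5.23%. *Acsl1* and *Acss3* were called lower in Cebpa_ASKO, against 3.84% of all genes, and *Acsl3* was called higher, against 1.39% of all genes. The median log2 fold change was -0.21 over the 8 genes and 0.02 over all genes tested. The libraries of the genotypes did not overlap for 4 of the 8 genes, and for 26.1% of all genes. *Acsl1* and *Acss3* were wholly lower (13.2% of all genes), and *Acsl3* and *Acsl6* wholly higher (12.9% of all genes). An exact two-sided permutation test of 3 against 3 libraries cannot give a p below 0.1, so for each gene the overlap of the libraries is given beside the edgeR result.

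**Figure D1:**
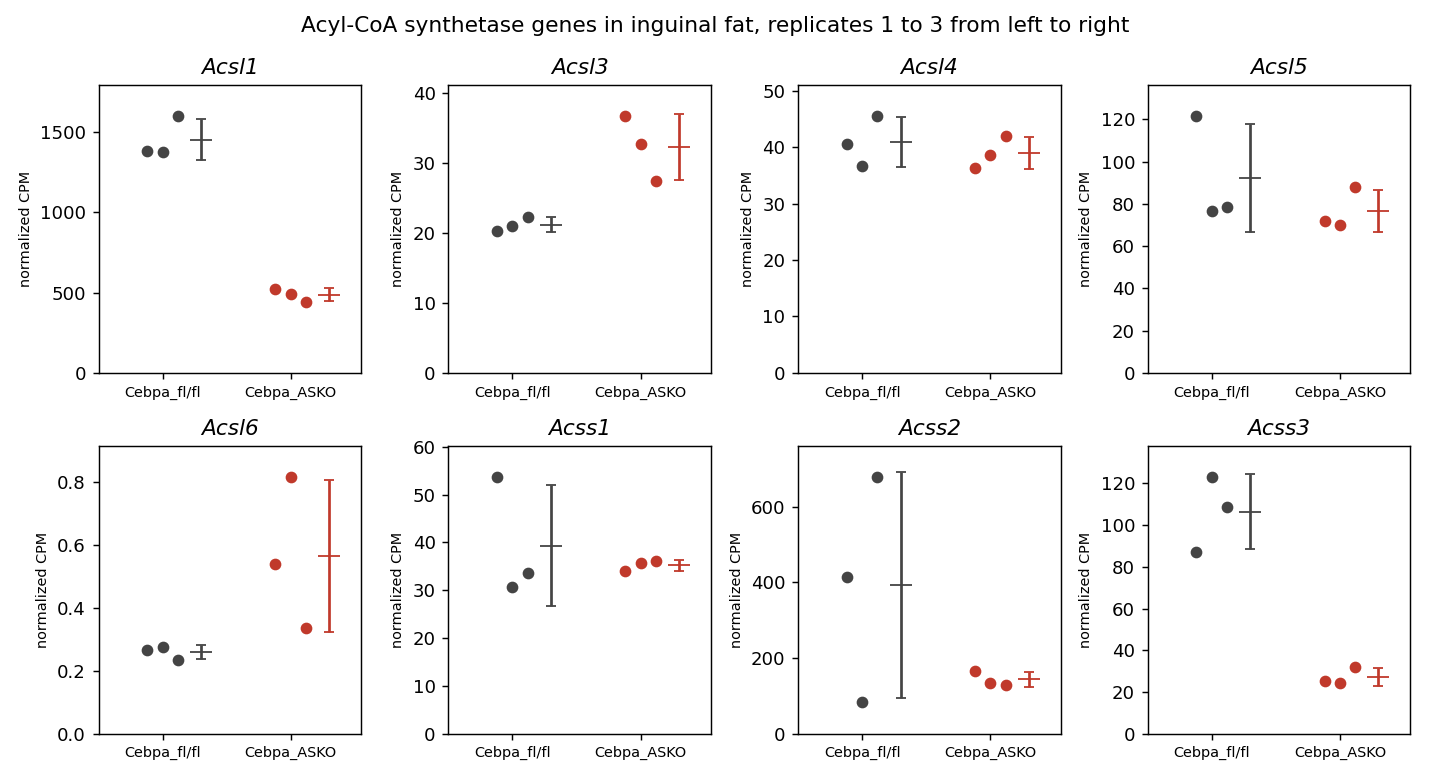
Normalized CPM (linear axes from 0, with a scale of its own for each gene) of the 8 genes in each library, with replicates 1 to 3 from left to right and a bar for the mean ± SD of 3 libraries. The genotypes do not overlap for *Acsl1*, *Acsl3*, *Acsl6* and *Acss3*, and *Acss2* runs from 84.8 to 679 CPM within Cebpa_fl/fl.

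*Acsl1*, which activates long-chain fatty acids in adipocytes, was lower in all 3 Cebpa_ASKO libraries. It was at 1379, 1376 and 1601 CPM in Cebpa_fl/fl 1, 2 and 3, against 524, 491 and 445 CPM in Cebpa_ASKO 1, 2 and 3. The highest Cebpa_ASKO library lay below the lowest control. The means were 1452 ± 129 and 487 ± 40.1 CPM (SD, n = 3 for each genotype), which is 33.5% of the control level. The log2 fold change was -1.58 (SE 0.142, adjusted p = 0.00223 by edgeR; exact two-sided permutation p = 0.1). With each library left out in turn it lay between -1.63 and -1.50, and the call held each time. *Acsl1* (ENSMUSG00000018796.13) lies on chromosome 8, from 46471037 to 46536051 on the plus strand.

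The files give a value for each transcript, so the levels could be read by transcript start. Of the 11 annotated *Acsl1* transcripts, 6 begin between 46471037 and 46471183, at the upstream start; the limits of the starts were set after the transcripts had been seen. These 6 summed to 411, 464 and 512 TPM (transcripts scaled by length and library) in Cebpa_fl/fl 1, 2 and 3, against 157, 168 and 157 TPM in Cebpa_ASKO 1, 2 and 3. They held a mean of 97.5% of *Acsl1* TPM in the controls and 97.0% in Cebpa_ASKO, so nearly all *Acsl1* RNA was assigned to them in both genotypes. The second start, 19929 bases downstream, had 2.08, 0.613 and 2.04 TPM in the controls, against 0.991, 0.694 and 0.858 TPM in Cebpa_ASKO. The third start, 21795 bases downstream of the first, had 2.40, 0.992 and 3.49 TPM in the controls, against 0.980, 1.16 and 0.384 TPM in Cebpa_ASKO. The remaining 2 transcripts, which begin 55749 bases or more downstream of the first start, had 7.52, 3.51 and 13.3 TPM in the controls, against 4.99, 3.76 and 1.13 TPM in Cebpa_ASKO, more in every library than at either of the 2 starts just named. The genotypes overlapped in all 3 of these sets. A single transcript of the upstream start, *Acsl1-201*, held 96.6 ± 1.29% and 95.9 ± 1.33% of *Acsl1* TPM (SD, n = 3 for each genotype).

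**Figure D2:**
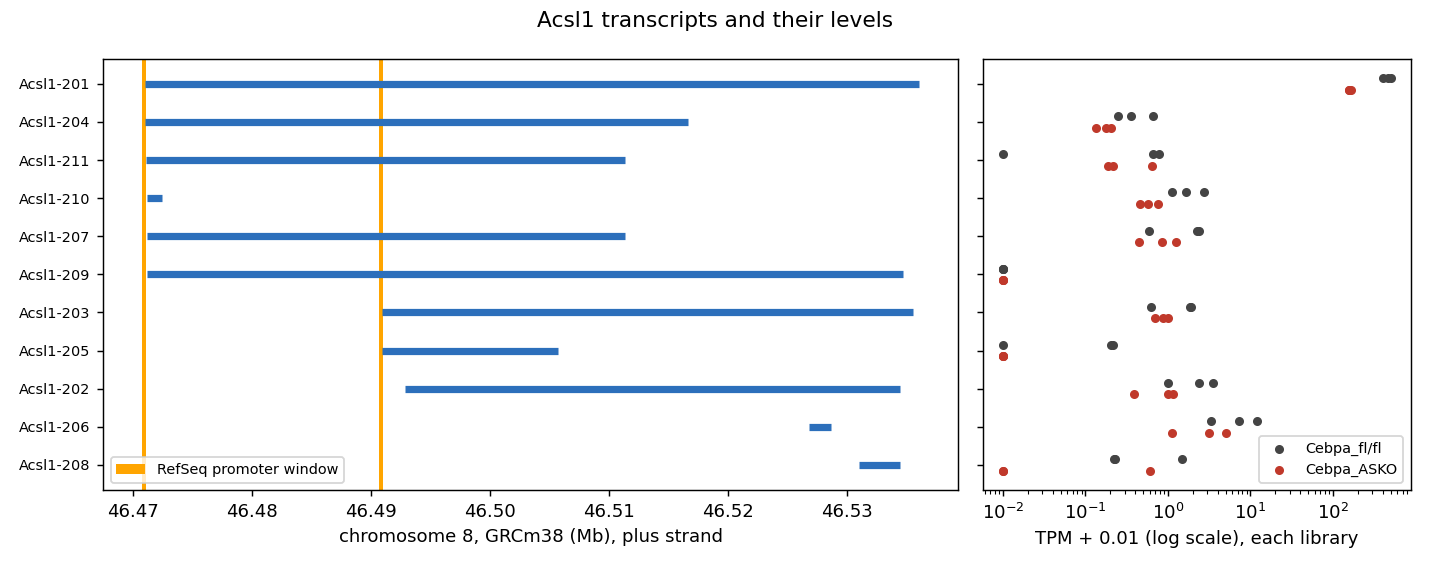
*Acsl1* transcripts on chromosome 8 of GRCm38 (left, position in Mb; bars run from the first to the last base of each transcript, and shaded bands are the RefSeq promoter windows) and their level in each library (right, TPM + 0.01 on a log axis, 1 point per library). *Acsl1-201* lies above all other transcripts in every library.

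The sequences at the *Acsl1* starts are shown because the transcripts of the upstream start carried the difference between the genotypes, and that of *Acsl3* because it was called in the opposite direction. RefSeq promoter windows (GRCm38.p6) matched 7 of the 8 genes by symbol, with 10 windows in all; *Acss3* had no entry. The *Acsl1* windows are chr8:46470787-46471086 and chr8:46490716-46491015, and the *Acsl3* window is chr1:78657575-78657874, all on the plus strand. Motifs were searched on both strands, and matches, which may overlap, are in capitals. A GC box was searched as GGGCGG. The letters searched for a CCAAT box are its name. The SREBP pattern was TCACNCNAC and the C/EBP pattern TTGCNNAA. The PPAR direct repeat was AGGNCA repeated with 1 base between. The motifs were chosen after the sequences and the fits had been seen, and a match describes letters only.
Acsl1 upstream start: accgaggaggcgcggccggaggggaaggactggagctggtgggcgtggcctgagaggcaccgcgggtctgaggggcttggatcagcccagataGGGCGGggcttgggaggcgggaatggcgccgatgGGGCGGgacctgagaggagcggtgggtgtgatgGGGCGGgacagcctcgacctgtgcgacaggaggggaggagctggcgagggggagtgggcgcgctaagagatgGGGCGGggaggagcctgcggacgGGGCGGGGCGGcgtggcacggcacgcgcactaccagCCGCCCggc
Acsl1 second start: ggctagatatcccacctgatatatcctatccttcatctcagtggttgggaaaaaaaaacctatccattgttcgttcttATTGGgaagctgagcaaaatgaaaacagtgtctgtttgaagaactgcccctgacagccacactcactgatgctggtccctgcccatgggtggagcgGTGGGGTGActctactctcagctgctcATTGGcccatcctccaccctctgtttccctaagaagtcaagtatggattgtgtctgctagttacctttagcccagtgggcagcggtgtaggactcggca
Acsl3: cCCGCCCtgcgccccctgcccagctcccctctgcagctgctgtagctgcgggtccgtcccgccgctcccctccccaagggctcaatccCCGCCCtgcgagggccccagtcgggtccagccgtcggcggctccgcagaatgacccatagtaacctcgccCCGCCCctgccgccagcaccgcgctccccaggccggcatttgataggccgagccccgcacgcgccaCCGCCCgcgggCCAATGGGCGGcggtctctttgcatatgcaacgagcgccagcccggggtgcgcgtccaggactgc
The upstream *Acsl1* window held 7 GC boxes and none of the other motifs, and 74.0% of its bases were G or C. The second *Acsl1* window held 2 CCAAT boxes and 1 match to the SREBP pattern, with 50.0% G or C. The *Acsl3* window held 5 GC boxes and 1 CCAAT box. Among 32851 promoter windows of the same length, 35.7% held a GC box, 37.4% a CCAAT box and 2.70% the SREBP pattern. The C/EBP pattern was in 10.8% of them and the PPAR direct repeat in 0.381%, and neither was in any of the 10 windows of the synthetase genes.

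*Acss3*, a mitochondrial synthetase that acts on propionate, had the lowest adjusted p of the 8 genes. It was at 87.3, 123 and 109 CPM in Cebpa_fl/fl 1, 2 and 3, against 25.3, 24.4 and 32.1 CPM in Cebpa_ASKO 1, 2 and 3. No Cebpa_ASKO library reached the lowest control. The means were 106 ± 18.1 and 27.2 ± 4.22 CPM (SD, n = 3 for each genotype), which is 25.6% of the control level. The log2 fold change was -1.97 (SE 0.168, adjusted p = 0.00183 by edgeR; exact two-sided permutation p = 0.1). With each library left out it lay between -2.12 and -1.86, and the call held. *Acss3* (ENSMUSG00000035948.13) lies on chromosome 10, from 106933517 to 107123668 on the minus strand.

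*Acss2* and *Acss3* had the widest range of log2 CPM among the 8 genes, and the genes with the most similar pattern over the 6 libraries were sought for both among 12522 genes. For *Acss3* they were *Papss2*, *Klhl2* and *Bcat2*, whose centred log2 CPM differed from its own by a root mean square of 0.07, 0.10 and 0.10. *Klhl2*, which encodes a kelch-like protein, was at 108, 134 and 130 CPM in the controls, against 28.3, 25.2 and 33.3 CPM in Cebpa_ASKO. *Bcat2*, the mitochondrial branched-chain aminotransferase, was at 211, 252 and 247 CPM in the controls, against 58.1, 51.4 and 63.5 CPM in Cebpa_ASKO. *Papss2*, *Klhl2* and *Bcat2* had log2 fold changes of -1.86, -2.10 and -2.03 and were called lower, which follows from their choice by likeness to *Acss3* in the same libraries.

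*Acsl3*, a long-chain synthetase of the endoplasmic reticulum and lipid droplets, was higher in Cebpa_ASKO. It was at 20.3, 20.9 and 22.3 CPM in Cebpa_fl/fl 1, 2 and 3, against 36.7, 32.7 and 27.4 CPM in Cebpa_ASKO 1, 2 and 3. The controls lay close together and below every Cebpa_ASKO library. The means were 21.2 ± 1.03 and 32.3 ± 4.69 CPM (SD, n = 3 for each genotype), a 1.52-fold difference. The log2 fold change was 0.61 (SE 0.121, adjusted p = 0.0395 by edgeR; exact two-sided permutation p = 0.1). The call was close to the threshold and was lost in 11 of 17 alternative settings (adjusted p 0.00196 to 0.999 over edgeR, DESeq2 and limma fits), while the log2 fold change was positive in all of them, at 0.35 to 0.69. In edgeR it was lost without Cebpa_fl/fl 1 (adjusted p = 0.129), Cebpa_fl/fl 2 (0.0713), Cebpa_fl/fl 3 (0.0879), Cebpa_ASKO 1 (0.136) or Cebpa_ASKO 2 (0.143), and held without Cebpa_ASKO 3 (0.0200). *Acsl3* (ENSMUSG00000032883.15) lies on chromosome 1, from 78657825 to 78707743 on the plus strand. *Utp14b* overlaps it on the same strand, with means of 5.46 and 7.33 CPM in the controls and Cebpa_ASKO, and its part in the *Acsl3* counts was not tested.

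*Acss2*, which makes acetyl-CoA from acetate, varied widely among the controls. It was at 414, 84.8 and 679 CPM in Cebpa_fl/fl 1, 2 and 3, against 167, 134 and 130 CPM in Cebpa_ASKO 1, 2 and 3. Cebpa_fl/fl 2 was below every Cebpa_ASKO library and the other controls were above them, so the genotypes overlapped. The means were 393 ± 298 and 143 ± 20.3 CPM (SD, n = 3 for each genotype). The log2 fold change of -1.45 did not pass (SE 0.646, adjusted p = 0.276 by edgeR; exact two-sided permutation p = 0.4). The highest control was 8.01 times the lowest, and 217 of the 16069 genes tested, or 1.35%, had a wider range of log2 CPM among the controls. Within Cebpa_ASKO the highest library was 1.29 times the lowest. The *Acss2* result rests on single controls. Without Cebpa_fl/fl 2 the log2 fold change was -1.94 and was called by edgeR (adjusted p = 0.00861), and without Cebpa_fl/fl 3 it was -0.80 (adjusted p = 0.545), within a range of 0.00861 to 0.999 over all alternatives. It was -0.84 in limma on log2(TPM + 1) and -0.28 with a skeletal muscle covariate, neither called. *Acss2* (ENSMUSG00000027605.18) lies on chromosome 2, from 155517948 to 155585724 on the plus strand.

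The low *Acss2* of Cebpa_fl/fl 2 stood beside low values of other genes of acetyl-CoA supply and fatty acid synthesis in that library. Of the 13 genes in that list, 11 had their lowest value of the 6 libraries in Cebpa_fl/fl 2, against 23.0% of all genes tested. The same held for 10 of 15 genes of mitochondrial acyl-CoA oxidation, 7 of 12 of SREBP2 and sterol synthesis and 7 of 12 other acyl-CoA synthetases. It held for 4 of 11 thioesterases, 3 of 6 genes of acetate and propionate handling, 2 of 6 PPAR receptors and partners, 2 of 11 peroxisomal genes, 2 of 12 glycerolipid acyltransferases, 0 of 9 genes of fatty acid supply and 0 of 5 acyl-CoA binding proteins. *Fasn*, the fatty acid synthase, was at 9648, 2743 and 15806 CPM in the controls, against 10670, 10114 and 8671 CPM in Cebpa_ASKO. *Fasn* thus shared the order of *Acss2* among the controls, but its Cebpa_ASKO libraries lay near the control mean of 9399 CPM. The genes with the pattern most similar to *Acss2* were *Me1*, *Dmbt1* and *Abcc8*, at root mean square differences of 0.31, 0.31 and 0.37 in centred log2 CPM. *Me1*, the cytosolic malic enzyme that supplies NADPH, was at 1249, 478 and 2511 CPM in the controls, against 506, 477 and 406 CPM in Cebpa_ASKO. None of *Me1* (-1.61), *Dmbt1* (-1.25) and *Abcc8* (-1.18, all log2 fold changes) was called by edgeR, and DESeq2 called *Me1* (adjusted p = 0.00971). Like *Acss2*, to which they were chosen as nearest in the same libraries, all 3 were called by edgeR without Cebpa_fl/fl 2, and without Cebpa_fl/fl 3 they were at -0.90, -0.70 and -0.66. Brown and beige adipocyte markers, with *Cidea* the most abundant over all 6 libraries, also differed among the controls, with sums of 1253, 146 and 372 CPM, against 1302, 999 and 677 CPM in Cebpa_ASKO. The 6 markers did not move together between the genotypes, with 4 negative and 2 positive log2 fold changes. *Ucp1* was at 733, 19.4 and 112 CPM in the controls, against 248, 224 and 181 CPM in Cebpa_ASKO. *Cidea* was at 248, 33.8 and 119 CPM, against 732, 524 and 343 CPM. Cebpa_fl/fl 2 was also the highest of the 6 libraries in summed macrophage markers (2750 CPM) and in summed fibroblast and progenitor markers (10840 CPM). The part of tissue makeup in the spread of *Acss2* was not tested.

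**Figure D3:**
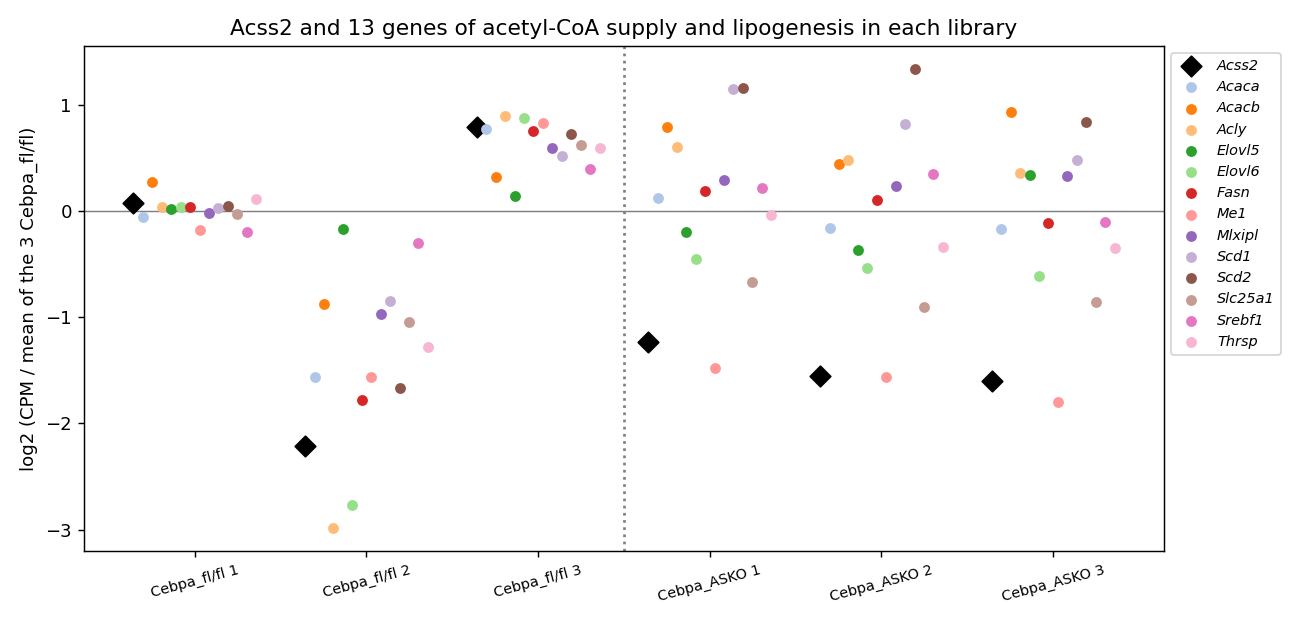
CPM of *Acss2* (black diamonds) and of the 13 genes of acetyl-CoA supply and lipogenesis in each library, as log2 of the ratio to the mean of the 3 Cebpa_fl/fl libraries. *Acss2* and most of the list are low in Cebpa_fl/fl 2 and high in Cebpa_fl/fl 3, while in Cebpa_ASKO *Acss2* and *Me1* lie below the other genes.

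The other 4 genes were not called. *Acsl4*, which prefers arachidonic acid, was at 40.5, 36.7 and 45.6 CPM in Cebpa_fl/fl 1, 2 and 3, against 36.3, 38.5 and 42.1 CPM in Cebpa_ASKO 1, 2 and 3. The genotypes interleaved, and the log2 fold change was -0.07 (SE 0.108), turning to 0.0135 without Cebpa_fl/fl 3. *Acsl5*, a long-chain synthetase of mitochondria and the endoplasmic reticulum, was at 122, 76.8 and 78.6 CPM in the controls, against 71.9, 70.0 and 88.1 CPM in Cebpa_ASKO. Cebpa_fl/fl 1 stood above the other libraries, and the log2 fold change of -0.27 (SE 0.201) was -0.02 without it. *Acss1*, the mitochondrial enzyme that activates acetate, was at 53.8, 30.7 and 33.5 CPM in the controls, against 33.9, 35.7 and 36.0 CPM in Cebpa_ASKO. Cebpa_fl/fl 1 was again the highest, and the log2 fold change of -0.16 (SE 0.210) turned to 0.13 without it. Adjusted p by edgeR was 0.798 for *Acsl4*, 0.534 for *Acsl5* and 0.758 for *Acss1*, which does not show that the levels were equal.

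*Acsl6*, best known from brain, had 12, 13 and 11 counts in Cebpa_fl/fl 1, 2 and 3, against 17, 32 and 15 counts in Cebpa_ASKO 1, 2 and 3. In CPM these were 0.267, 0.276 and 0.233, against 0.539, 0.817 and 0.337, so the genotypes did not overlap. The log2 fold change was 1.11 (SE 0.414, adjusted p = 0.202 by edgeR; exact two-sided permutation p = 0.1) and was not called. The Cebpa_ASKO libraries had the same order in *Acsl6* as in summed skeletal muscle markers (2803, 5102 and 1803 CPM). With a muscle covariate the log2 fold change turned to -0.67, but the covariate did not overlap between the genotypes. Muscle content and genotype cannot be told apart in that fit. Without Cebpa_ASKO 2 the log2 fold change of *Acsl6* was 0.72. It was 1.51 with the transcript length offset and 0.27 by limma on log2(TPM + 1) without a filter, not called in either. The part of muscle in the *Acsl6* counts was not tested. *Acsl4* (ENSMUSG00000031278.12) lies on chromosome X, from 142317993 to 142390535 on the minus strand, and *Acsl5* (ENSMUSG00000024981.6) on chromosome 19, from 55251938 to 55297720 on the plus strand. *Acsl6* (ENSMUSG00000020333.17) lies on chromosome 11, from 54303798 to 54364756 on the plus strand, and *Acss1* (ENSMUSG00000027452.11) on chromosome 2, from 150618105 to 150668500 on the minus strand.

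Levels of different genes were compared in TPM, which allows for transcript length. In Cebpa_fl/fl the order was *Acsl1* (474 ± 54.2 TPM), *Acss2* (175 ± 134), *Acsl5* (39.9 ± 14.0), *Acss3* (30.7 ± 6.79), *Acss1* (13.4 ± 3.47), *Acsl4* (10.4 ± 1.40), *Acsl3* (9.96 ± 1.40) and *Acsl6* (0.122 ± 0.0450; mean ± SD, n = 3). The ranges of *Acss2* and *Acsl5*, of *Acsl5* and *Acss3*, of *Acss1* and *Acsl4* and of *Acsl4* and *Acsl3* overlapped. Within each control library *Acss2* was above *Acsl5*, though only narrowly in Cebpa_fl/fl 2 (40.9 against 37.2 TPM). The other pairs changed order between control libraries. In Cebpa_ASKO the order was *Acsl1* (166 ± 7.53 TPM), *Acss2* (72.4 ± 3.53), *Acsl5* (30.4 ± 4.26), *Acsl3* (15.1 ± 1.31), *Acss1* (12.7 ± 1.45), *Acsl4* (10.2 ± 1.48), *Acss3* (8.34 ± 1.77) and *Acsl6* (0.355 ± 0.134; mean ± SD, n = 3). *Acsl1* was thus the highest and *Acsl6* the lowest of the 8 genes in TPM in both genotypes. From *Acsl3* to *Acss3* in the Cebpa_ASKO order, the ranges of neighbours overlapped. Within each Cebpa_ASKO library *Acss1* was above *Acsl4* and *Acsl4* above *Acss3*, while *Acsl3* and *Acss1* changed order.

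The 5 *Acsl* genes together had 496, 528 and 579 TPM in Cebpa_fl/fl 1, 2 and 3, against 216, 230 and 220 TPM in Cebpa_ASKO 1, 2 and 3. The Cebpa_ASKO sums were wholly lower, at 41.5% of the control mean. *Acsl1* made up 85.2, 88.9 and 91.6% of the *Acsl* TPM in the controls, against 75.9, 75.8 and 72.4% in Cebpa_ASKO. Without *Acsl1* the other 4 genes summed to 73.5, 58.6 and 48.8 TPM in the controls, against 52.1, 55.6 and 60.8 TPM in Cebpa_ASKO, and the genotypes overlapped. Mean shares of the *Acsl* TPM were 1.87% and 6.81% for *Acsl3*, 1.94% and 4.61% for *Acsl4* and 7.62% and 13.7% for *Acsl5*, in the controls and Cebpa_ASKO. The 3 *Acss* genes together had 216, 88.8 and 352 TPM in the controls, against 93.3, 94.6 and 92.6 TPM in Cebpa_ASKO. In TPM Cebpa_fl/fl 2 lay below the Cebpa_ASKO libraries, whereas summed CPM, at 555, 239 and 822, against 226, 194 and 198, did not overlap. These sums and shares were not tested.

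Most RNA of the other genes was assigned to few transcripts. *Acss2-201* held 87.7 ± 1.61% of *Acss2* TPM in the controls and 76.5 ± 3.90% in Cebpa_ASKO (SD, n = 3 for each genotype). *Acss2-203* held 8.10 ± 0.580% and 12.9 ± 0.312% (SD, n = 3 for each genotype). For both shares the genotypes did not overlap, although the *Acss2* totals did. *Acss3-203* held 83.0 ± 3.45% and 80.4 ± 0.996% of *Acss3* TPM, and *Acss3-201* 14.1 ± 2.81% and 14.3 ± 1.76% (SD, n = 3 for each genotype), with overlap for both. *Acss3-202*, a noncoding transcript, held 2.91 ± 0.920% and 5.27 ± 0.925% (SD, n = 3 for each genotype), without overlap. In shares of estimated counts *Acss3-201* held 7.92% and 8.18%, and *Acss3-202* 1.15% and 2.11%. *Acss1-201* held a mean of 99.7% of *Acss1* TPM in Cebpa_ASKO and all of it in the controls. *Acsl3-205* held 50.3 ± 18.6% and 49.9 ± 5.57% of *Acsl3* TPM, and *Acsl4-203* 75.6 ± 9.95% and 66.6 ± 9.38% of *Acsl4* TPM (SD, n = 3 for each genotype), again with overlap. *Acsl5-201* held 67.0 ± 13.9% and 74.8 ± 4.03% of *Acsl5* TPM, and *Acsl5-203*, a transcript of 455 bases, 24.0 ± 13.9% and 22.3 ± 7.09% (SD, n = 3 for each genotype). In shares of estimated counts *Acsl5-203* held 2.51% and 1.99%, since TPM divides by length. *Acsl6* counts were too few to read its transcripts apart. Transcript shares are estimates of kallisto and were not tested. *Zdhhc6* overlaps *Acsl5* and *Gss* overlaps *Acss2*, each on the opposite strand, with mean CPM in the controls and Cebpa_ASKO of 40.3 and 41.7 for *Zdhhc6* and 20.3 and 32.9 for *Gss*. The use of strand in counting is not given in the sources used here.

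Other genes of acyl-CoA formation and use were read from lists, each described by its calls and its median log2 fold change, which was 0.02 over all genes tested. Over all genes, 5.23% were called and 13.2% were wholly lower in Cebpa_ASKO, and 1 gene called of 15, as in mitochondrial oxidation, is near that share; values in brackets after a gene are log2 fold changes, Cebpa_ASKO over Cebpa_fl/fl. Calls are those of edgeR where no other tool is named. DESeq2 called 1802 of 23307 genes with a p value, and 11.1% of the 16025 among them that edgeR tested. It called 9 of 9 genes of fatty acid supply, 8 of 12 glycerolipid acyltransferases and 5 of 11 peroxisomal genes. It called 3 of 15 of mitochondrial oxidation, 3 of 12 other acyl-CoA synthetases, 2 of 6 of acetate and propionate handling, 2 of 6 PPAR receptors and partners, 1 of 11 thioesterases and 1 of 5 acyl-CoA binding proteins. Of 12 other acyl-CoA synthetases tested, 2 were called, both lower, and the median was 0.15. *Slc27a1*, which couples fatty acid uptake to acyl-CoA synthesis, was at 499, 789 and 662 CPM in the controls, against 111, 90.5 and 137 CPM in Cebpa_ASKO. Like *Acsl1*, it was lower in every Cebpa_ASKO library than in any control, and fell (log2 fold change -2.52, SE 0.232, adjusted p = 0.00239 by edgeR). *Acsm5*, a medium-chain synthetase, fell (-1.84), a call lost in edgeR without Cebpa_fl/fl 3 (adjusted p = 0.0767), Cebpa_ASKO 1 (0.128) or Cebpa_ASKO 2 (0.0601). *Aacs*, which activates acetoacetate, had a log2 fold change of 0.41 and was not called; it was 0.12 without Cebpa_fl/fl 2 and 0.64 without Cebpa_fl/fl 3.

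Of 9 genes that supply fatty acids to the synthetases, all had lower levels in Cebpa_ASKO without overlap (13.2% of all genes), 5 were called, and the median was -1.13. *Fabp5* fell (-2.36), and *Mgll* (-1.30), *Abhd5* (-1.15) and *Gpihbp1* (-1.13) also fell. *Lpl* fell (-1.34), and its call was lost in edgeR without Cebpa_ASKO 2 (adjusted p = 0.0647, log2 fold change -1.30). *Fabp4*, at -0.86, was not called by edgeR but was by DESeq2 (adjusted p = 1.49e-5). Of 12 glycerolipid acyltransferases, which use the acyl-CoA that ACSL enzymes make, 5 were called, all lower, and the median was -0.87. *Gpat3* (-3.61), *Dgat1* (-1.91) and *Mogat1* (-1.60) fell. *Mogat2* (-2.83) and *Dgat2* (-2.01) fell too, calls kept only without Cebpa_fl/fl 2 when a library was left out (adjusted p 0.0224 to 0.153 and 0.00967 to 0.159 by edgeR). *Agpat2*, at -0.15, was not called and turned to 0.09 without Cebpa_fl/fl 3.

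Of 11 genes of peroxisomal acyl-CoA import and oxidation, 4 were called, all lower, and the median was -0.32. *Abcd2*, which imports very long-chain acyl-CoA, was at 224, 331 and 341 CPM in the controls, against 12.4, 12.9 and 11.2 CPM in Cebpa_ASKO, and fell (-4.62). *Scp2* fell (-0.79), a call lost without Cebpa_fl/fl 1, Cebpa_ASKO 1 or Cebpa_ASKO 2 (adjusted p 0.0174 to 0.0764 by edgeR over libraries left out). *Acaa1b* fell (-1.33), a call kept only without Cebpa_fl/fl 2 or Cebpa_ASKO 3 (0.0262 to 0.117). Of 15 genes of mitochondrial acyl-CoA oxidation 1 was called, and the median was 0.30. *Acaa2* rose (1.95), a call kept only without Cebpa_fl/fl 1 (adjusted p 0.0230 to 0.161 by edgeR over libraries left out), and *Hadhb* (0.94), which DESeq2 called (adjusted p = 0.0498), and *Acadm* (0.49, but 0.30 without Cebpa_fl/fl 2) were not called by edgeR. Of 11 thioesterases, which split acyl-CoA again, only *Acot4* was called, lower (-1.24), also with each library left out. *Acot11* (1.31, but 2.60 without Cebpa_fl/fl 1 and 0.78 without Cebpa_fl/fl 2) and *Acot9* (0.13, but 0.05 without Cebpa_ASKO 1) were not called, and the median was 0.13. Of 5 acyl-CoA binding proteins *Acbd4* was called, lower (-0.94), but kept its call only without Cebpa_fl/fl 2 or Cebpa_ASKO 3 (adjusted p 0.0230 to 0.0689 by edgeR). *Dbi*, at -0.33 (-0.52 without Cebpa_ASKO 1 and -0.22 without Cebpa_ASKO 3), was not called, and the median was -0.18.

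Of 6 genes of acetate and propionate handling, the pathways of the ACSS enzymes, 1 was called, and the median was -0.12. *Mcee*, which acts after propionyl-CoA carboxylase, fell (-0.64), a call kept only without Cebpa_fl/fl 2 (adjusted p 0.0471 to 0.138 by edgeR over libraries left out). *Pccb* was at -0.08, or 0.01 without Cebpa_fl/fl 1, and *Slc16a1*, a monocarboxylate transporter, at 1.35, was called by edgeR without Cebpa_fl/fl 1 (adjusted p = 0.0244) and by DESeq2 with all libraries (0.00102). Of 13 genes of acetyl-CoA supply and lipogenesis none was called by edgeR with all libraries, and 2 were without Cebpa_fl/fl 2. With all libraries 1 had an unadjusted p under 0.05 and DESeq2 called 1, and the median was 0.06. *Scd1* was at 0.84 (0.54 without Cebpa_fl/fl 2) and *Fasn* at 0.06 (-0.38 without Cebpa_fl/fl 2 and 0.66 without Cebpa_fl/fl 3). Of 12 genes of SREBP2 and sterol synthesis none was called by edgeR with all libraries, and 3 were without Cebpa_fl/fl 2. With all libraries 4 had an unadjusted p under 0.05 and DESeq2 called 3, and the median was -0.16. *Insig1*, at 0.47 (0.30 without Cebpa_ASKO 2), was called without Cebpa_ASKO 3 (adjusted p = 0.0461 by edgeR), and *Hmgcs1*, at -0.66 (-0.44 without Cebpa_fl/fl 1), without Cebpa_fl/fl 2 (0.0265) and by DESeq2 with all libraries (0.0261). Of 6 PPAR receptors and partners 2 were called, both lower, and the median was -0.17. *Pparg* fell (-0.78), a call lost in edgeR without Cebpa_ASKO 1 (adjusted p = 0.0700, log2 fold change -0.80). *Rxra* fell (-0.54), a call kept only without Cebpa_fl/fl 1 or Cebpa_fl/fl 2 (adjusted p 0.0359 to 0.138 by edgeR).

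Markers of other cells were read beside *Acsl1*, *Acss3* and *Acsl3*. With the mean log2 CPM of the 8 skeletal muscle markers as a covariate, none of the 8 synthetase genes was called by edgeR and 2 had an unadjusted p under 0.05. *Acsl1* had a log2 fold change of -1.66 (adjusted p = 0.514, the highest of its 17 alternatives), *Acss3* of -1.68 (0.517, likewise the highest) and *Acsl3* of 0.35 (0.999), all by edgeR. *Cebpa* itself, at -3.95, was not called in this fit (adjusted p = 0.110 by edgeR), so a lost call there does not show a smaller difference. Over all genes this fit, with 3 residual degrees of freedom, called 2. The covariate was between 5.81 and 6.29 in the controls and between 7.48 and 8.96 in Cebpa_ASKO, so muscle content and genotype cannot be told apart.

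The Cebpa_ASKO libraries all lay above the controls in summed markers of smooth muscle, mammary and other epithelium, and Schwann cells and nerve. Smooth muscle markers, with *Acta2* the most abundant, summed to 385, 482 and 500 CPM in the controls, against 580, 706 and 549 CPM in Cebpa_ASKO. Epithelial markers (*Krt8*) summed to 826, 565 and 1178 CPM, against 1687, 1517 and 1662 CPM, and Schwann cell and nerve markers to 96.8, 105 and 64.6 CPM, against 237, 186 and 142 CPM. Of the 7 epithelial markers tested, 3 were wholly higher in Cebpa_ASKO and 4 overlapped between the genotypes. Without *Krt8* and *Krt18* the summed epithelial markers overlapped. The separation of the Schwann cell and nerve sum rested on 1 gene, *S100b*, without which the summed markers overlapped. *S100b* was at 15.6, 8.48 and 5.70 CPM in the controls, against 128, 97.9 and 44.8 CPM in Cebpa_ASKO. Of the 4 Schwann cell and nerve markers, 2 overlapped between the genotypes. Sums were lower in every Cebpa_ASKO library for endothelial, erythroid and hepatocyte markers. Endothelial markers (*Pecam1*) summed to 317, 316 and 376 CPM in the controls, against 230, 201 and 291 CPM in Cebpa_ASKO, and erythroid markers (*Hbb-bs*) to 716, 1051 and 567 CPM, against 496, 409 and 362 CPM. Hepatocyte markers summed to 25.7, 33.3 and 32.5 CPM, against 5.52, 5.54 and 1.05 CPM, and *Alb*, the most abundant, fell (-2.91), a call kept only without Cebpa_ASKO 3 when a library was left out (adjusted p 0.00316 to 0.118 by edgeR). *Alb* made up nearly all of this sum (means of 29.5 and 30.5 CPM in the controls), so the sum does not show that hepatocytes were present. Sums overlapped for macrophages (*Lyz2*), at 1537, 2750 and 1026 CPM in the controls, against 1676, 1727 and 2291 CPM in Cebpa_ASKO, and for fibroblasts and progenitors (*Col3a1*), at 6292, 10840 and 6236 CPM, against 7428, 7132 and 8748 CPM. Of the marker genes tested, 1 of 6 endothelial and 2 of 3 hepatocyte genes were called lower and 1 of 4 Schwann cell and nerve genes higher by edgeR. None was called by edgeR for smooth muscle, epithelium, erythroid cells, brown and beige adipocytes, lymphocytes, macrophages or fibroblasts, with 3, 5, 5, 2, 4, 0 and 0 genes at an unadjusted p under 0.05. DESeq2 also called *Krt8* and *Hbb-bs* (adjusted p = 0.0138 and 0.0104). No marker was at 0 in every library. The part of these cells in the levels of the synthetase genes was not tested.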

How the data were processed

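The authors deposited kallisto's estimated counts and TPM per transcript for each library, with transcript lengths, and a table of TPM per gene symbol. The submitters' processing notes list kallisto 0.44.0 and the builds GRCm38.p6 and GRCh38.p12, the latter with no stated role; the annotation of the transcripts is not given in the sources used here. Here 116816 of 118489 transcripts (98.6%) were matched to GENCODE M21 (GRCm38), and estimated counts were summed per symbol and rounded. Summed TPM equalled the authors' gene TPM within 0.1% or 0.001 TPM for 35711 of 35999 symbols.

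The genotypes were compared by edgeR 4.0.16 in R 4.3.3 (TMM factors, filterByExpr, glmQLFit, glmQLFTest), with Benjamini-Hochberg adjustment over 16069 genes and calls at an adjusted p below 0.05. SE is the absolute log2 fold change divided by the square root of F. The study's methods name DESeq2, which was an alternative here (1.42.0), beside other scalings, filters, a transcript length offset, limma 3.58.1 on log2(TPM + 1) and log2(TPM + 0.1), the replicate number, a muscle covariate and each library left out. The members and lists were chosen with earlier results of these data known. Named genes were the members, *Cebpa*, the called genes of each pathway list (at most 5) and its 2 most abundant, the most abundant marker of each cell type, and the 3 genes nearest in pattern to the 2 members of widest range; 2 genes that this rule names are not reported here. *S100b*, *Ucp1* and *Krt18* were named outside this rule, after the data had been seen. Tables were made with Python 3.11.15, pandas 2.3.3 and numpy 2.4.6.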

Additional observations from a re-analysis of the deposited data

How the results depend on the processing

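*Acsl1* and *Acss3* kept direction and call in 16 of 17 alternatives, and *Acsl3* in 6 of 17. The exception for *Acsl1* and *Acss3* was the muscle covariate, under which edgeR called 0 members (2 at an unadjusted p under 0.05) and 2 genes in all. Log2 fold changes there were -3.95 for *Cebpa*, -1.66 for *Acsl1*, -1.68 for *Acss3* and 0.35 for *Acsl3*, and signs turned for *Acsl4* (0.19), *Acsl5* (0.34), *Acsl6* (-0.67) and *Acss1* (0.11), none called in either fit. *Cebpa*, the deleted gene, lost its call there too (adjusted p = 0.110, edgeR). *Acss2* was at -0.28 there and at -0.84 in limma on log2(TPM + 1), not called. *Acsl3* was also not called with the length offset (0.55), with limma on log2(TPM + 1) with a filter (0.56) or without (0.56), or on log2(TPM + 0.1) (0.60). *Acsl6* was too low for filtered limma, and at 0.27 without a filter.

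With each library left out, log2 fold changes were 0.504 to 0.695 for *Acsl3*, -0.154 to 0.0135 for *Acsl4*, -0.323 to 0.132 for *Acss1* and -1.94 to -0.798 for *Acss2*, and 311 to 922 genes were called. Signs also turned for *Agpat2* (-0.462 to 0.0947), *Fasn* (-0.385 to 0.664), *Pccb* (-0.235 to 0.0112), *Lyz2* (-0.323 to 0.394), *Cd79a* (-6.51 to 0.00362) and *Col3a1* (-0.365 to 0.0927), none called. The alternatives for markers and nearest genes were chosen after seeing the data. DESeq2 called 1802 genes and limma without a filter 359, against 840. Family totals were 41.5% (*Acsl*) and 42.7% (*Acss*) of control in TPM and 39.5% and 38.2% in CPM.

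With the replicate number as a replicate block, 370 genes were called, 355 of them among the 840, and *Acsl3* (0.60) was not. Same-numbered libraries correlated at 0.162, -0.029 and -0.287 across genes in their deviations from the genotype mean. Differently numbered libraries correlated at -0.239 to 0.234. With 3 libraries in each genotype these values do not show whether the numbers pair the mice. Except where the fit has fewer libraries or residual degrees of freedom, the cause was not tested. *Acsl6* had 11 to 32 counts a library.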
